A study of Mus musculus with 6 samples.

Results

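Immediate early genes are switched on within minutes of a stimulus, without new protein synthesis, by factors that already sit in the cell. Serum response factor with its Ets partners, and CREB, receive the signal from MAP kinases, and the mRNAs made are short-lived. Many of the products are transcription factors that pass the signal on, while others, such as a phosphatase of MAP kinases and an mRNA-decay factor, end it. These genes respond to growth factors and stretch in heart tissue, and also to the handling of tissue. The 10 genes described here, Fos, Fosb, Jun, Junb, Jund, Egr1, Klf4, Ier2, Dusp1 and Zfp36, were taken by name from the 23284 genes of the deposited table, and each was listed there in 1 row.

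The comparison asked which genes differ in expression in the heart ventricle when Tbx5ua, a long non-coding RNA divergently transcribed from the Tbx5 promoter, is knocked down. Ventricles of E9.5 mouse embryos on a C57BL/6 background were used, 3 WT and 3 KD. All embryos were tetraploid chimeras, in which the embryo proper comes from the injected ES cells and the tetraploid host cells contribute mainly to extraembryonic tissue. WT embryos came from wild-type ES cells. KD embryos (Tbx5ua -/-) came from C57BL/6J-derived ES cells in which tandem bovine growth hormone polyadenylation signals had been placed in the second exon of both Tbx5ua alleles, with the selection markers then removed by Cre. The study made KD embryos from more than one ES cell line, and the labels do not tie a library to a line. The deposited table holds 1 FPKM value (the number of mapped fragments scaled to transcript length and to the size of the library) for each group and none for a single embryo. The depth of the libraries is unknown, no spread between embryos can be given, and the differences below are given without a replicate check or a test. The table also holds the authors' own test of WT against KD, which was not used here. In bulk ventricle, fewer cells of a type and less RNA per cell cannot be told apart.

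Markers of cardiomyocytes matched the labelled tissue. All 7 on the list were present, with a summed level of 30311 FPKM in WT against 31269 FPKM in KD. The highest macrophage marker, Lyz2, had 20.3 FPKM in WT against 16.5 FPKM in KD, while Csf1r, under the filter, had 0.363 and 0.240 FPKM. Also under the filter were Cx3cr1 (0.127 and 0.0109 FPKM), Ptprc (0.00676 and 0.0115 FPKM) and C1qa (0.0361 and 0 FPKM). Adgre1 was not listed. Lyz2 is therefore not read as a measure of macrophages. Of the 6 hepatic and yolk sac markers, Apoa2 was kept, at 7.05 FPKM in WT against 8.86 FPKM in KD. Alb and Fgb were listed at 0 in both groups, and Afp (0.00717 and 0.294 FPKM), Apoa1 (0.175 and 0.292 FPKM) and Ttr (0.425 and 0.790 FPKM) were under the filter and higher in KD.

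Egr1 was the immediate early gene that stood farthest above WT in KD ventricles among those with at least 1 FPKM in either group, and Klf4 was the 1 such gene that was lower. The other 7 genes above this level were all somewhat higher in KD, by log2 differences between 0.05 and 0.54. In all, 9 of the 10 genes passed the filter (at least 1 FPKM in either group and above 0 in both), and Fosb did not. At a threshold of 1.5-fold, 1 of the 9 genes was higher in KD, where 4.62% of the 11548 genes kept by the same filter were higher. On the other side 1 of the 9 was lower, where 3.10% of the genes kept were lower. This gene, Klf4, passed the filter only through WT, the group in which it is higher, so nothing is read from that count. KD exceeded WT by any amount in 8 of the 9 genes and in 50.9% of the genes kept. The median log2 difference of the 9 genes was 0.20, and that of all genes kept was 0.00492. These genes respond to common signals and do not vary independently, and with 1 value per group the tilt toward KD is a description of these pooled values.

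**Figure D1:**
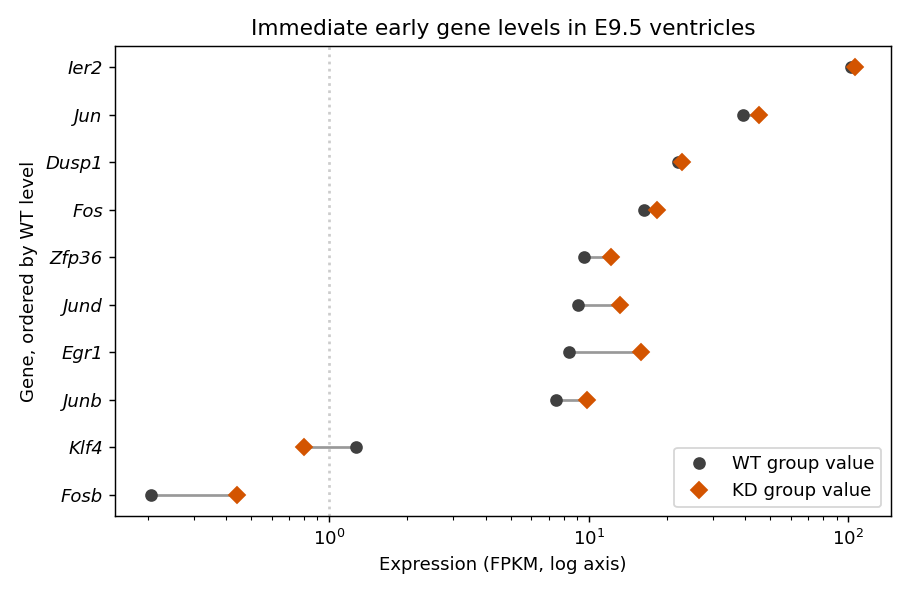
Group values of the 10 immediate early genes in FPKM on a log axis, with WT as circles and KD as diamonds, ordered by the WT level. The dotted line marks 1 FPKM. Ier2 led at 103 FPKM in WT, Fosb and Klf4 were lowest, and the widest gap among the better expressed genes was that of Egr1.

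Since FPKM is scaled to transcript length, levels can be compared between the genes. Ier2, which encodes a small nuclear protein induced by growth factors, had the highest level, 103 FPKM in WT against 106 FPKM in KD. It exceeded Jun, the next gene, 2.61-fold in WT and 2.35-fold in KD. After Jun came Dusp1 and Fos in both groups. The following places differed between the groups. In WT, Zfp36, Jund, Egr1 and Junb followed within a narrow range of 9.61 to 7.47 FPKM, and in KD the order was Egr1, Jund, Zfp36 and Junb, from 15.9 to 9.80 FPKM. Egr1 thus moved from place 7 to place 5. Without a spread between embryos, it cannot be said which neighbours in either order differ. Ier2 lay above 90.1% of the genes kept in WT, Zfp36 above 49.9% and Klf4 above 6.35%, so the genes reach from high ventricular expression down to its lower edge.

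Fos, Jun and their relatives encode the subunits of AP-1, a dimeric transcription factor in which a Jun protein pairs with itself or with a Fos protein. Jun, on chromosome 4 between 95049036 and 95052222, had 39.4 FPKM in WT against 45.2 FPKM in KD, a log2 difference of 0.20. Junb, on chromosome 8 between 84976909 and 84978748, had 7.47 FPKM in WT against 9.80 FPKM in KD, a log2 difference of 0.39. Junb protein activates weakly and can oppose Jun. Jund, on chromosome 8 between 70697739 and 70700616 and the least inducible of the Jun genes, had 9.06 FPKM in WT against 13.1 FPKM in KD, a log2 difference of 0.54. At 1.45-fold, Jund was the gene nearest to the threshold from below. Summed over these 3 genes, the Jun family had 55.9 FPKM in WT against 68.1 FPKM in KD. Jun made up 70.4% of this family in WT and 66.3% in KD, and Jund 16.2% and 19.3%. The pattern is that of a family in which Jun dominated in both groups and the log2 differences of its relatives were larger than that of Jun, while the difference in FPKM was largest for Jun (5.78, against 4.08 for Jund and 2.33 for Junb).

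Fos, the inducible partner of Jun, is located on chromosome 12 between 85473901 and 85477270. Its level was 16.3 FPKM in WT against 18.4 FPKM in KD, a log2 difference of 0.17. Jun exceeded Fos 2.41-fold in WT and 2.46-fold in KD, so the balance of these mRNAs was nearly the same in both groups. Fosb, a relative of Fos on chromosome 7 between 19302696 and 19310045, had only 0.205 FPKM in WT against 0.442 FPKM in KD. Its log2 difference of 1.11 is the largest of the 10 genes, but both values lie under the filter, where small absolute differences give large ratios. Fos was 79.8 times as abundant as Fosb in WT and 41.6 times in KD, so nearly all mRNA of these Fos genes came from Fos.

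The promoters of Fos and Junb are shown as RefSeq gives them on GRCm38.p6, 5′ to 3′ on the gene strand and ending at the base before the start site, because they are AP-1 genes whose windows hold the core of a CREB element. Fos covers chr12:85473640-85473889 on the plus strand, and Junb covers chr8:84978749-84978998 on the minus strand. Capitals mark TGACG, the core of that element, and the promoter motifs TATAA and CCAAT, each searched on both strands.
Fos: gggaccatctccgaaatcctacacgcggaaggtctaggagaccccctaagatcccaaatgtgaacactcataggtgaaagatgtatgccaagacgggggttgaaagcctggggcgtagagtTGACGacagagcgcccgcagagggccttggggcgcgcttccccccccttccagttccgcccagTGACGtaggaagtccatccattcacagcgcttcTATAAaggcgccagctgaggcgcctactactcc
Junb: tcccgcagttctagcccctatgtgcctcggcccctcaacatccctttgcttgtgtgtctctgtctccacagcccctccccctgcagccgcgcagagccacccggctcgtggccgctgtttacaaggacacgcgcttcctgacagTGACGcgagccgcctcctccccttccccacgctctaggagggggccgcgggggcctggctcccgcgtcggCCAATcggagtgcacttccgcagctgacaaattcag

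In Fos, TGACG occurred from base 129 to base 125 and from base 66 to base 62 before the start, and TATAA from base 33 to base 29. In Junb, TGACG lay from base 106 to base 102 and CCAAT from base 36 to base 32. RefSeq promoters were matched for 8 of the 10 genes, all but Egr1 and Ier2. TGACG was found in the 250 bases before the start in 5 of these 8 (Fos, Fosb, Junb, Klf4 and Dusp1) and in 17.8% of all 32851 promoter windows. CCAAT was found in Jun and Junb and in 33.8% of all windows. A match of letters is not evidence of binding.

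**Figure D2:**
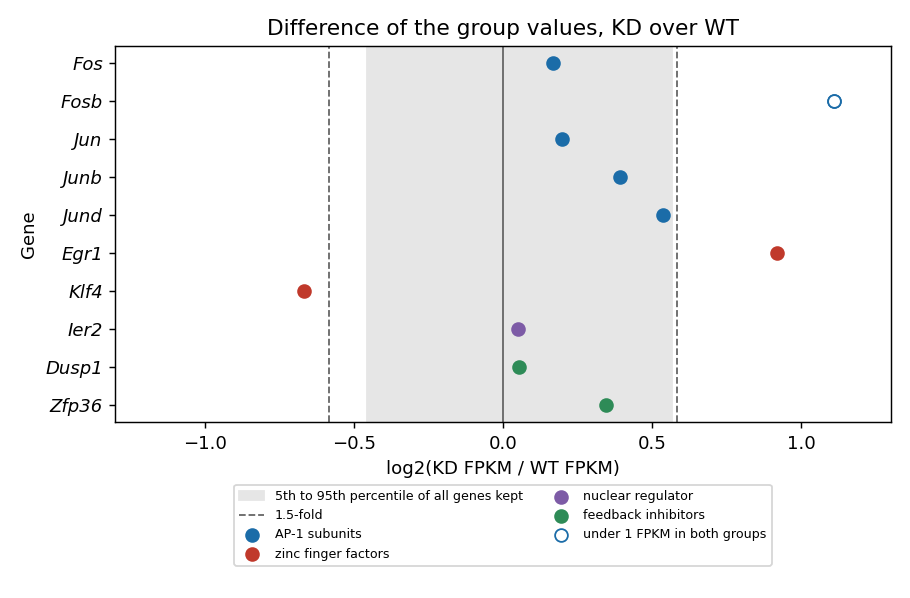
Difference of the group values, log2(KD/WT), for each immediate early gene, coloured by role. The grey band spans the 5th to the 95th percentile of all genes kept, dashed lines mark 1.5-fold, and the open circle is Fosb with less than 1 FPKM in both groups. Egr1 at 0.92 and Klf4 at -0.67 lie outside the lines on opposite sides, and the other 7 filled points lie between them.

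Klf4, a Krüppel-like factor known from pluripotent cells, from endothelium under flow and from growth arrest, was low in these ventricles. The gene lies on chromosome 4 between 55527137 and 55532475. It had 1.27 FPKM in WT against 0.800 FPKM in KD, a log2 difference of -0.67, which is 1.59-fold lower in KD. It was the gene just past the threshold and sits next to the filter, so its difference rests on -0.471 FPKM, KD less WT. With 1 added to each value before the log the difference was -0.34. Of the 9 other Krüppel-like factor genes kept, 5 were above and 4 below WT, where 50.9% of the genes kept were above. None was past 1.5-fold, and with the shares of 4.62% and 3.10% given above, this does not set Klf4 apart from them. Klf2, the flow-responsive relative, had 9.98 FPKM in WT against 8.91 FPKM in KD. Endocardial markers served as a measure of the cells in which Klf2 and Klf4 are known to act. Their summed level was 139 FPKM in WT against 156 FPKM in KD. Above WT were 5 of the 7, where 50.9% of the genes kept were above, so nothing is read from this count. The part of endocardial cells in the Klf4 difference was not tested.

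Dusp1 and Zfp36 belong to the genes that end the response. Dusp1 is a phosphatase that inactivates MAP kinases in the nucleus. Its gene, on chromosome 17 between 26505591 and 26508472, had 22.0 FPKM in WT against 22.8 FPKM in KD, a log2 difference of 0.05 and, with that of Ier2, the smallest of the 10. Zfp36 (tristetraprolin) binds AU-rich elements in the 3′ ends of mRNAs and brings about their decay. Its gene, on chromosome 7 between 28376784 and 28379228, had 9.61 FPKM in WT against 12.2 FPKM in KD, a log2 difference of 0.35. Ier2, on chromosome 8 between 84661331 and 84662852, likewise had a log2 difference of 0.05. The most abundant genes of the set, Ier2, Jun, Dusp1 and Fos, all had log2 differences of 0.20 or less, while Zfp36, Jund, Egr1 and Junb, with lower levels, had larger ones. Klf4, at a still lower level, was below WT. Over all genes, too, larger ratios were more frequent with low genes included. At 1.5-fold 4.62% of the genes kept were higher, against 1.78% with a filter of 5 FPKM. The pattern is therefore not read as a trait of these genes.

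The promoters of Dusp1 and Klf4, a gene with nearly equal values in both groups and the gene that was lower in KD, are shown in the same way. Dusp1 covers chr17:26508520-26508722 on the minus strand and ends 48 bases before the RefSeq start, where an exon of a longer annotated transcript begins. Klf4 covers chr4:55532476-55532725 on the minus strand and ends at the base before the start. Capitals mark TGACG and TATAA as before, and also GCGNGGGCG as a motif of Egr proteins, on either strand.
Dusp1: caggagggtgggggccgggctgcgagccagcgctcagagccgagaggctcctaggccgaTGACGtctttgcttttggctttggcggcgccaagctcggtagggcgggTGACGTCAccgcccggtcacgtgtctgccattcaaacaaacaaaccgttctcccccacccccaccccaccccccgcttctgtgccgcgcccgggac
Klf4: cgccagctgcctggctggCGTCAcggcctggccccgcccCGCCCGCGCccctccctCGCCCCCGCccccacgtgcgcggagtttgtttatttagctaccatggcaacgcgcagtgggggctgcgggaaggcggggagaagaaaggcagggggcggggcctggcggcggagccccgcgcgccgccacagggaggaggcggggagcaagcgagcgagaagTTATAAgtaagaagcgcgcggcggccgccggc

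In Dusp1 the 2 overlapping TGACG matches on opposite strands, from base 143 to base 136 before the start, form the complete CREB element TGACGTCA. Klf4 held GCGNGGGCG on the opposite strand at 2 positions, from base 211 to base 203 and from base 194 to base 186. This motif was found in 3 of the 8 matched genes, Fosb, Klf4 and Zfp36, and in 4.70% of all windows. Within the windows of the 8 matched genes, the CArG box, the element of serum response factor, was found in Zfp36 alone. It was found in 1.47% of all windows. Bases farther upstream were not searched, and Egr1 and Ier2 had no matched promoter. A missing match is therefore not read as absence of the element from a gene. The window of Zfp36 lies inside an exon of a longer transcript and is not printed. The AP-1 motif TGANTCA was found in 0 of the 8 and in 6.75% of all windows.

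Features of the transcripts of the immediate early genes were taken from GENCODE release M21, with 1 coding transcript chosen per gene. Jun, Junb, Jund and Ier2 have a single exon, which holds for 2.18% of the 10015 coding genes kept and matched. None of the 10 has more than 5 exons, as is the case for 26.8% of the genes kept and matched. The 3′ untranslated region of 9 of the 10 genes, all but Ier2, held the AU-rich core ATTTA, against 67.8% of the genes kept. The longer motif TATTTAT, close to the sequence bound by tristetraprolin, was found in 6 of the 10 and in 28.7% of the genes kept. ATTTA sites per kilobase of the 3′ untranslated region ranged from 0 in Ier2 to 5.80 in Dusp1. Their median was 2.56 for the 10 genes and 1.40 for the genes kept. The regions differ in length, so a longer one has more room for a match. Their median length was 794.5 bases for the 10 genes and 1019 bases for the genes kept and matched.

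For the 6 genes with TATTTAT, 30 bases of the 3′ untranslated region around such a site are shown as DNA on the gene strand, with ATTTA in capitals, because Zfp36, itself among the 10 genes, acts on sites of this kind. Positions on GRCm38 are chr12:85477103-85477132 (plus strand) for Fos, chr7:19303325-19303354 (minus) for Fosb, chr4:95049078-95049107 (minus) for Jun, chr8:70700359-70700388 (plus) for Jund, chr17:26506158-26506187 (minus) for Dusp1 and chr7:28376965-28376994 (minus) for Zfp36. Where a gene has several such sites, the one with the most ATTTA cores in the window was taken.
Fos: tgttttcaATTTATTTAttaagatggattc
Fosb: ccacccccagctATTTAtccctttcctggt
Jun: ttgcttgtgcatATTTAtaatagcgttcgt
Jund: cgattccgccctATTTAtgtttctactcgg
Dusp1: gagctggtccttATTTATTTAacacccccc
Zfp36: agtgggccctttATTTAtgacgactttatt

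In Fos and Dusp1 the window holds 2 overlapping cores, and in the other 4 genes it holds 1. Dusp1 and Zfp36 each had 3 TATTTAT sites in all and Fos had 2. Genes with these sites spanned log2 differences between the groups from 0.05 in Dusp1 to 0.54 in Jund, with Fosb, under the filter, at 1.11.

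Members of the wider immediate early and growth factor response lay on both sides of WT. The list holds 86 further genes, of which 71 passed the filter. At 1.5-fold, 5 of the 71 were higher in KD (7.04%, against 4.62% of the genes kept) and 4 were lower (5.63%, against 3.10%). These counts include Cebpb, which passed the filter only through KD, and Tnfaip3, which passed only through WT, so nothing is read from them. Above WT by any amount were 35 of the 71, or 49.3%, against 50.9% of the genes kept. This count of direction includes Cebpb and also Plk3, which passed the filter only through KD, so nothing is read from it. The median log2 difference of the 71 was -0.02.

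**Figure D3:**
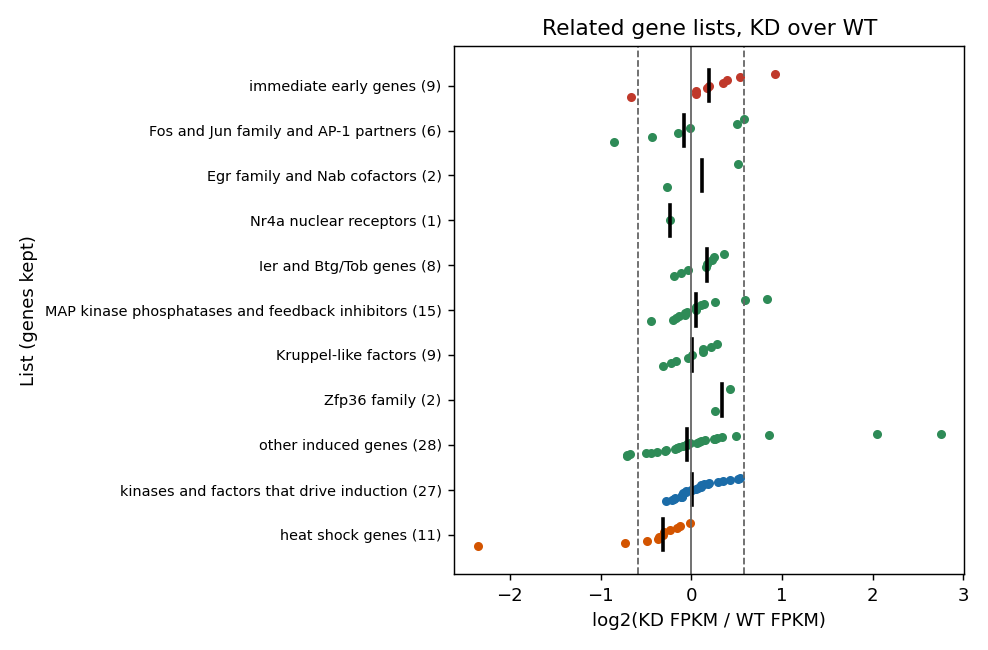
Difference of the group values, log2(KD/WT), for each gene kept, by list, with the number of genes in brackets, the median as a black bar and 1.5-fold as dashed lines. Cebpb and Cebpd lie farthest to the right among the other induced genes kept, 8 of the 9 immediate early genes lie to the right of 0, and all 11 heat shock genes lie to its left. Cebpb passed the filter only through KD and Hspa1a, a heat shock gene, only through WT, so nothing is read from their directions. Of all genes kept, 50.9% were above WT.

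Other subunits and partners of AP-1 included a gene that stood on the opposite side from Egr1. Atf3, a stress-induced factor of the ATF family that can pair with Jun, had 14.6 FPKM in WT against 8.09 FPKM in KD, a log2 difference of -0.85. It was the highest of the 10 genes of its list in WT. Of these 10, 6 were kept, 2 above and 4 below WT, where 50.9% of the genes kept were above. Atf3 was the 1 of the 6 past 1.5-fold, where 3.10% of the genes kept were lower. Nothing is read from these counts of 6 genes. Among Egr relatives and Nab cofactors 2 of 5 were kept, with Nab1, a corepressor of Egr proteins, at 7.78 FPKM in WT against 6.45 FPKM in KD, and Nab2, a related corepressor at a locus given for more than one gene, at 2.07 and 2.97 FPKM. Their log2 differences were -0.27 and 0.52. Of the Nr4a nuclear receptors only Nr4a1 was kept, at 7.80 FPKM in WT against 6.66 FPKM in KD. All 8 Ier, Btg and Tob genes were kept, 5 above and 3 below WT, where 50.9% of the genes kept were above. None was past 1.5-fold, and with 4.62% of the genes kept higher and 3.10% lower, nothing is read from this count of 8 genes. Ier3, the highest of them in WT, had 13.4 FPKM in WT against 15.7 FPKM in KD.

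The relatives of Dusp1 and other inhibitors of MAP kinase signalling were kept in full, 15 of 15. Of these, 8 were above and 7 below WT, where 50.9% of the genes kept were above. At 1.5-fold 2 were higher (13.3%) and 0 lower, where 4.62% of the genes kept were higher and 3.10% lower. Nothing is read from these counts of 15 genes. Dusp6, which acts on ERK and was the highest, had 39.7 FPKM in WT against 43.9 FPKM in KD. Past 1.5-fold were Dusp5, another ERK phosphatase, with 3.17 FPKM in WT against 5.64 FPKM in KD, and Spry1, an inhibitor of receptor tyrosine kinase signalling, with 1.93 and 2.93 FPKM. The 2 relatives of Zfp36 that were kept were both above WT, as were 50.9% of the genes kept, so nothing is read from this count. Zfp36l1 had 45.8 FPKM in WT against 61.5 FPKM in KD, a log2 difference of 0.43, so that this relative was the most abundant gene of the family in both groups. Klf6 was the highest of the Krüppel-like factors, at 15.8 FPKM in WT against 18.3 FPKM in KD.

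Among the 28 other induced genes kept, 12 were above and 16 below WT, where 50.9% of the genes kept were above. At 1.5-fold 3 were higher and 3 lower (10.7% each), where 4.62% of the genes kept were higher and 3.10% lower. These counts include Cebpb, which passed the filter only through KD, and Tnfaip3, which passed only through WT. The counts of direction also include Plk3, which passed only through KD. Nothing is read from any of these counts. Past 1.5-fold in KD were 2 C/EBP factors, which are induced by cytokines and cyclic AMP. Cebpb had 0.387 FPKM in WT against 2.62 FPKM in KD, a log2 difference of 2.76, on chromosome 2 between 167688915 and 167690418. Cebpd had 1.07 FPKM in WT against 4.43 FPKM in KD, a log2 difference of 2.05. Cebpd shares its locus in the table with another gene, so its value is less certain, and both genes are low in WT. Gadd45a, a gene induced by growth arrest and DNA damage, had 1.23 FPKM in WT against 2.22 FPKM in KD, and also shares its locus. Lower in KD were Socs3, an inhibitor of cytokine signalling (2.41 and 1.48 FPKM), Tnfaip3, an inhibitor of NF-kB signalling (1.61 and 0.987 FPKM), and Errfi1, an inhibitor of the EGF receptor (10.8 and 6.75 FPKM). The highest gene of the list, Gadd45g, had 93.3 FPKM in WT against 98.8 FPKM in KD.

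**Figure D4:**
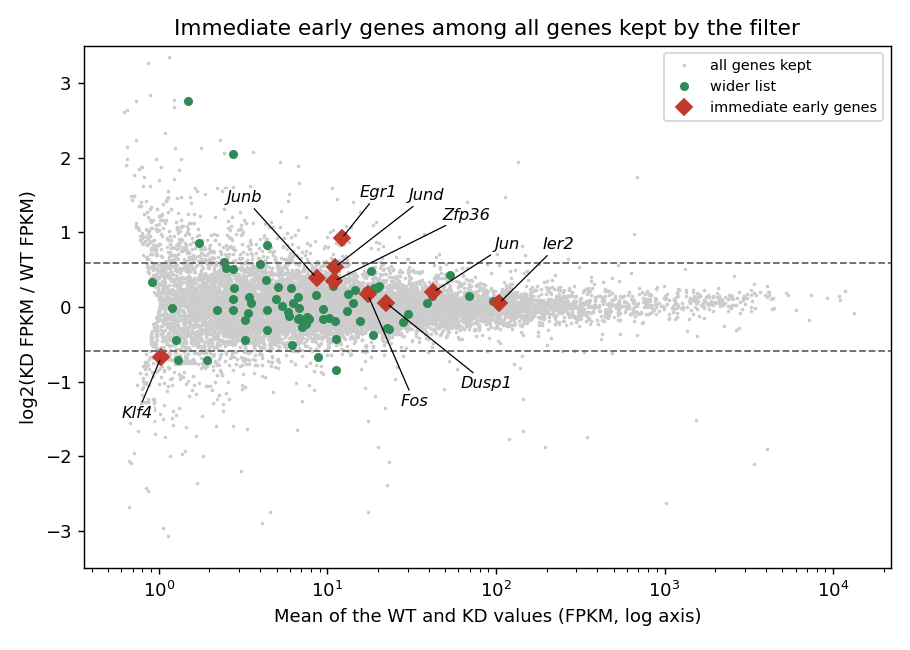
Difference of the group values, log2(KD/WT), against the mean of both values in FPKM on a log axis, for all genes kept (grey), the wider list (green circles) and the immediate early genes (red diamonds). 8 genes beyond 3.5 on the vertical axis are not drawn. The grey cloud narrows toward higher levels, Egr1 lies above its dashed line at 1.5-fold, and Klf4 lies at the wide left end.

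Egr1, a zinc finger factor that is a standard readout of ERK and serum response factor activity, is located on chromosome 18 between 34861207 and 34864956. It had 8.41 FPKM in WT against 15.9 FPKM in KD, which is 1.89-fold higher and a log2 difference of 0.92. In the order of log2 differences it would stand at place 208 of the 11548 genes kept. Its log2 difference was second to that of Fosb, which is under the filter. Its gain of 7.51 FPKM was the largest of the 10 genes in absolute terms and made up 25.8% of their summed gains. Fos exceeded Egr1 1.94-fold in WT and 1.15-fold in KD. Egr2 had 0.111 FPKM in WT against 0.327 FPKM in KD, both under the filter.

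The kinases and transcription factors that drive induction lay on both sides of WT. All 27 genes of this list were kept, 14 above and 13 below WT, where 50.9% of the genes kept were above. In either direction 0 were past 1.5-fold, where 4.62% of the genes kept were higher and 3.10% lower, and their median log2 difference was 0.00437. The log2 differences ran from -0.28 in Mapk9, a JNK kinase, to 0.53 in Elk4. Of the Ets partners of serum response factor, Elk4 and Elk3 (0.43) were above WT and Elk1 (-0.10) was below. Of its coactivators, Mkl1 (0.35), at a locus given for more than one gene, was above WT and Mkl2 (-0.18) was below. Creb1, which encodes CREB, had a log2 difference of -0.21. Srf, which encodes serum response factor, had 8.41 FPKM in WT against 7.91 FPKM in KD. Map2k2, the highest of the list, had 88.9 FPKM in WT against 92.2 FPKM in KD. The activity of these proteins depends on phosphorylation, which mRNA levels do not show.

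Values of other groups of genes are given beside these differences. Of all genes kept, 50.9% were above WT, which is the share to set beside the counts of direction in these groups. Heat shock genes, which also respond to stress and handling, were below WT in each of the 11 kept from a list of 12, with a median log2 difference of -0.31. Their most abundant member, Hspa8, had 2956 FPKM in WT against 2380 FPKM in KD. Hsph1 (66.0 and 40.0 FPKM) and Hspa1a (2.83 and 0.553 FPKM) were past 1.5-fold, where 3.10% of the genes kept were lower. Hspa1a passed the filter only through WT, the group in which it is higher, so nothing is read from its call or its direction. Its reads can be shared with its near-identical copy Hspa1b. Epicardial markers were above WT in each of the 6 kept from a list of 7, with a summed level of 47.3 FPKM in WT against 96.8 FPKM in KD, and 5 of the 6 were past 1.5-fold, where 4.62% of the genes kept were higher, with log2 differences of 1.41 for Upk3b, 1.27 for Upk1b, 1.10 for Tcf21, 0.99 for Aldh1a2 and 0.92 for Tbx18. Aldh1a2 passed the filter only through KD, the group in which it is higher, so nothing is read from its direction or from the count past 1.5-fold. The highest of them in WT, Wt1, had a log2 difference of 0.48. Smooth muscle markers were below WT in each of the 3 kept from a list of 4, with sums of 3647 and 2929 FPKM over the list. Myh11, the gene not kept, had only 0.258 FPKM in WT against 0.0402 FPKM in KD. The list is therefore not read as a measure of smooth muscle cells. Tagln, at a locus given for several genes, was past 1.5-fold, with a log2 difference of -0.61, where 3.10% of the genes kept were lower, and Acta2, the highest, had -0.28. The part of stress, handling or cell composition in the differences of Egr1, Jund and the other immediate early genes was not tested.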

How the data were processed

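Libraries of 3 WT and 3 KD embryos, grouped by title, came from 10 ng of total RNA by Smart-Seq2, with 12 PCR cycles before tagmentation and 9 after it. The submitters' processing notes name TopHat, Bowtie2, Cuffdiff and mm10. Versions and annotation are not given in the sources used here. The authors deposited 1 Cuffdiff table with an FPKM value per group, KD under the name KO. Its columns of the authors' own comparison (fold change, test statistic, p and q) were not used. It has 0 columns of single embryos, so depth and spread are unknown and no test was made.

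The log2 ratio of KD to WT was computed with no pseudocount over the 11548 genes with at least 1 FPKM in either group and above 0 in both, and genes past 1.5-fold were counted. The scripts were tested on simulated data. The members and lists were chosen with earlier results of these data known. Named were every immediate early gene and, of the lists of related genes, each gene past 1.5-fold and the highest in WT. Other names (such as Klf2, Nab2, Egr2, Srf, Creb1, Mapk9, the Elk and Mkl genes, single cell type markers and genes under the filter) were added after their values were seen. Positions have 1 added to the start in the table. Promoters span 250 bases before the start in RefSeq (GRCm38.p6), and transcripts are the principal coding ones of GENCODE M21.

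Alternatives were thresholds of 1.25-fold and 2-fold, pseudocounts of 1 and 0.1, a filter of 5 FPKM or none, and subtraction of the median. Leaving out shared loci was added after seeing the data. Python 3.11.15, NumPy 2.4.6, pandas 2.3.3 and Matplotlib 3.10.9 were used.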

Additional observations from a re-analysis of the deposited data

How the results depend on the processing

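No paired analysis was possible because 1 value per group was analysed here, and for the same reason leaving out each replicate and a replicate block were not run. A median counted as changed when it differed at 2 decimals. Of the 9 immediate early genes, those higher in KD past the threshold numbered 4 at the lower threshold (Egr1, Jund, Junb and Zfp36), where 12.4% of all genes kept were higher, and 0 at 2-fold, where 1.44% were. With no filter they numbered 2 of 10, which adds Fosb, against 11.8% of 15739 genes, and elsewhere 1. Those lower numbered 0 at 2-fold, with a filter of 5 FPKM and on the log2(FPKM + 1) scale, and 1 elsewhere, so the call of Klf4 depends on these settings. The median log2 difference of the immediate early genes, 0.197, became 0.272 with a filter of 5 FPKM and with no filter, 0.193 on the log2(FPKM + 1) scale and 0.193 less the median of all genes. With a filter of 5 FPKM, 1.78% of 7878 genes were higher and 1.14% lower, and Egr1 was among the former. The log2 difference of Egr1 ran from 0.85 to 0.92 and that of Fosb from 0.26 to 1.11. No direction of a member changed under any alternative.

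In the wider list the genes higher numbered 12 at the lower threshold, 2 at 2-fold, 1 with a filter of 5 FPKM, 3 on the log2(FPKM + 1) scale and 3 without shared loci. Those lower numbered 9, 0, 2 and 2 under the first 4 of these. With no filter 7 of 80 genes of the list were higher and 6 lower, where 11.8% of all genes were higher and 9.35% lower. The shares of all genes higher and lower were 12.4% and 9.44% at the lower threshold, 1.44% and 0.970% at 2-fold, 1.96% and 1.22% on the log2(FPKM + 1) scale, and 4.59% and 2.85% without shared loci. Its median, -0.0160, became -0.0320 with a filter of 5 FPKM, -0.0405 without shared loci, -0.0149 and -0.00876 with pseudocounts of 0.1 and 1, and -0.00391 with no filter. Fosb, Klf4 and Cebpb are low genes whose precision is unknown without depth.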

Other observations

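Of the 86 genes of the wider list 15 did not pass the filter, and some of them are given here by their values. Egr4 and Batf2 were listed at 0 in both groups. Npas4, an activity-dependent factor of neurons, had 0.262 FPKM in WT against 0.313 FPKM in KD, and Arc, a regulator of synapses, had 0.527 and 0.492 FPKM. Ptgs2, the inducible cyclooxygenase, was listed at 0 in WT and had 0.0106 FPKM in KD. Within the Fos family, Fosl1 was listed at 0 in WT and had 0.0514 FPKM in KD, at a locus given for more than one gene, and Fosl2 had 0.726 and 0.884 FPKM. Fos was therefore the member of its family with the highest level in both groups. In the Nr4a family Nr4a2 had 0.774 FPKM in WT against 0.828 FPKM in KD, and Nr4a3 had 0.00836 and 0.0441 FPKM, both below Nr4a1. Klf5 had 0.647 FPKM in WT against 0.239 FPKM in KD, below the filter like Klf9, also at a shared locus, with 0.438 and 0.377 FPKM.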
